A study of Mus musculus with 2 samples.

Results

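The clustered protocadherins are the genes whose symbols place them in the alpha, beta or gamma protocadherin cluster of the mouse. They were chosen by symbol, with a rule that reads no measured value. This gave 58 gene records of the 55536 annotated genes: 14 in the alpha cluster, 22 in the beta cluster and 22 in the gamma cluster. The gamma members divide into 12 of type A, 7 of type B and 3 of type C, and 2 further C-type genes end the alpha cluster.

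Total RNA was sequenced of the left cerebral cortex in B6CASTF1/J males at 10 days of age, the hybrid of C57BL/6J and CAST/EiJ. All samples formed 1 untreated group of 2 libraries, called replicate 1 and replicate 2, with no control or treated group. The input was 300 ng of RNA per library, with ERCC spike-ins. Replicate 1 held 31254528 expected counts and replicate 2 held 30218308. The labels number the animals 1 by 1 but name a single donor for both, so the spread between the libraries may be technical. No test between groups was possible and no p-value is given. Reads from both parental alleles were counted together on the mm10 genome.

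Clustered protocadherins are adhesion proteins on the surface of neurons. In the alpha and gamma clusters each gene has its own large first exon, which encodes the extracellular cadherin repeats and the membrane span, and this exon is spliced to small exons shared by the whole cluster, which encode a common cytoplasmic end. Beta genes have no shared exons. Individual neurons switch on different combinations of members by choosing among the promoters, with the help of the insulator protein CTCF and cohesin, and the proteins bind their own kind on opposing membranes. This lets branches of 1 neuron recognise and avoid each other. The C-type genes are the exception: most of them are expressed in the majority of neurons rather than by choice. In RNA from whole tissue, fewer cells that express a gene and less RNA per cell cannot be told apart, and the choices of single neurons are averaged.

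The members lie in 3 arrays on chromosome 18 of mm10, all on the plus strand. The alpha cluster spans 257.5 kb at chr18:36930184-37187661, the beta cluster 259.5 kb at chr18:37264938-37524479 and the gamma cluster 180.1 kb at chr18:37661793-37841873. In the GENCODE M21 annotation the alpha transcripts join constant exons of 59 bases (chr18:37156155-37156213), 89 bases (chr18:37159265-37159353) and 2712 bases (chr18:37184946-37187657). The gamma transcripts join constant exons of 59 bases (chr18:37825021-37825079), 89 bases (chr18:37833265-37833353) and 1971 bases (chr18:37839903-37841873). The last constant exon of each cluster includes the 3′ UTR. The first 2 constant exons have the same lengths in both clusters. Of the 26 beta transcripts, 22 consist of a single exon. The records hold 57 distinct symbols, because the gene tables give the symbol Pcdha11 to 2 records. The record ENSMUSG00000007440.10 starts at position 37005203, where the RefSeq table of mouse genes places Pcdha10. The record ENSMUSG00000102206.5 starts at position 37010712, where RefSeq places Pcdha11. These records are told apart by identifier throughout. All members are annotated as protein-coding except Pcdhgb8, which is a polymorphic pseudogene.

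Nearly the whole family was expressed at 10 days. At 1 TPM or more (a transcript level normalised for length, with an equal total in every library) in both libraries, 57 of the 58 members were detected: 14 of 14 alpha, 21 of 22 beta and 22 of 22 gamma members. The background over all 22015 nuclear protein-coding genes was 59.6%. The only member below was Pcdhb1, the first gene of the beta array, which lacks the promoter element common to most of the family, with 0.16 TPM (8 counts) in replicate 1 and 0.14 TPM (7 counts) in replicate 2. The next lowest, Pcdhb2, had 1.68 and 2.34 TPM. With a limit of 0.5 TPM the count stayed at 57, and with 2 TPM it was 55, with 19 of the 22 beta members.

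The gamma cluster held more than the alpha and beta clusters together. Summed over its members it reached 294.07 TPM in replicate 1 and 293.88 TPM in replicate 2. The alpha cluster summed to 133.06 and 133.99 TPM, and the beta cluster to 71.88 and 75.68 TPM. Gamma thus made up 58.6% ± 0.40 of the family's summed TPM, alpha 26.6% ± 0.04 and beta 14.7% ± 0.44 (SD, n = 2). The order gamma, alpha, beta was the same in both libraries, and the sums did not overlap. The summed level of the family was 501.3 ± 3.21 TPM (SD, n = 2). Were the family 1 gene, 63 protein-coding genes would exceed this level. The gamma sum alone would be exceeded by 180 protein-coding genes, the alpha sum by 644 and the beta sum by 1427. In counts the family was small, with 44851 expected counts or 0.1435% of all counts in replicate 1 and 43718 or 0.1447% in replicate 2.

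**Figure D1:**
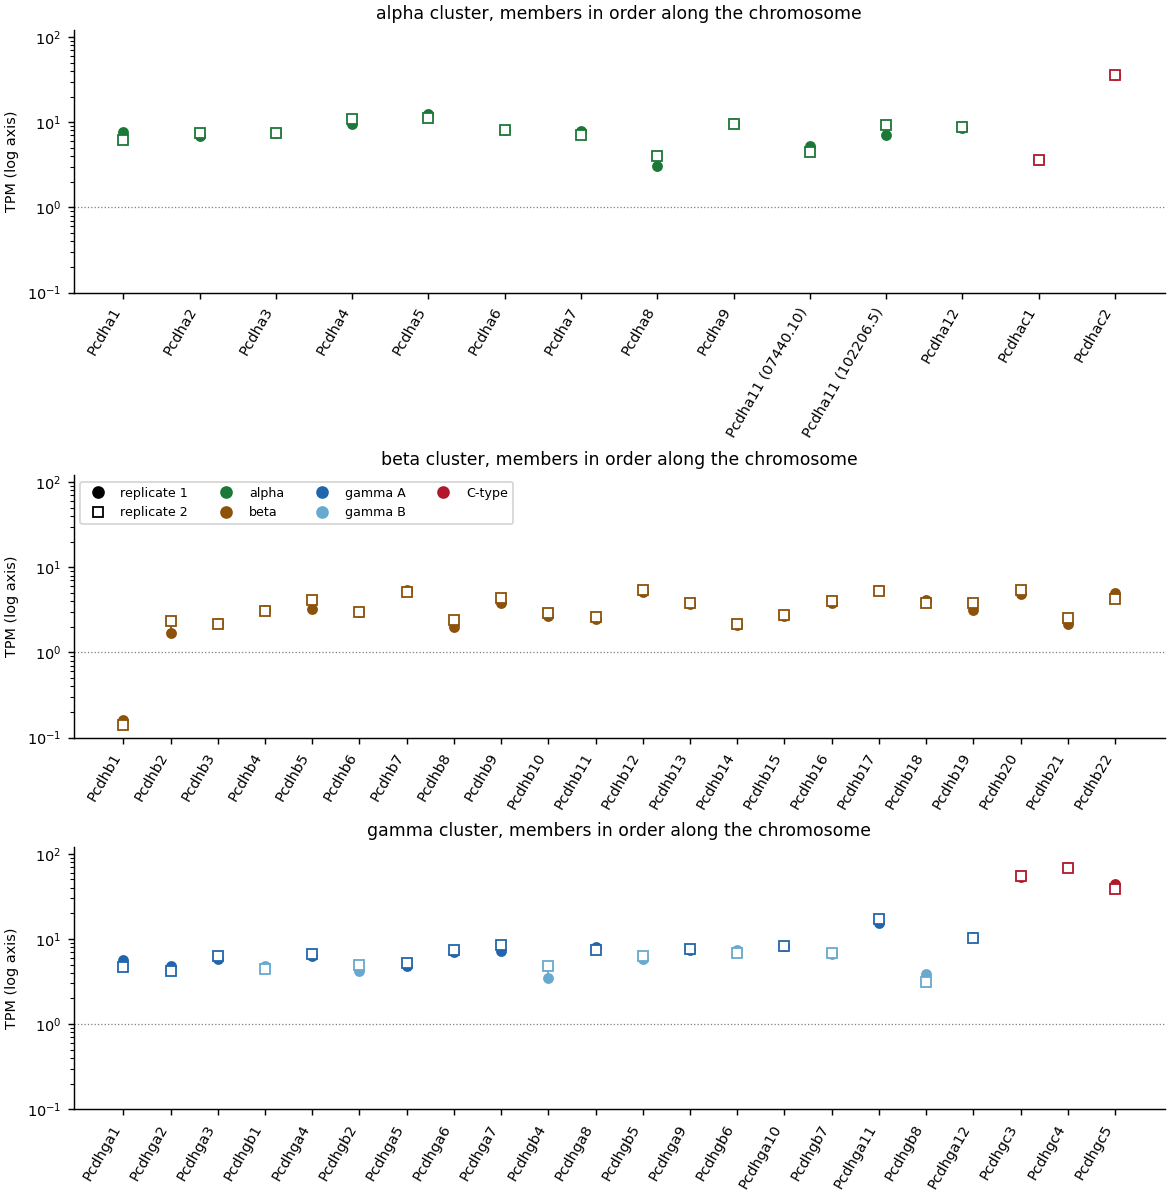
TPM on a log axis of every member in order along the chromosome, with 1 panel per cluster, filled circles for replicate 1, open squares for replicate 2 and a dotted line at 1 TPM. Pcdhac2, Pcdhgc3, Pcdhgc4 and Pcdhgc5 lie above every other member, between 35.85 and 69.21 TPM, and Pcdhb1 alone lies below the line.

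The C-type genes accounted for much of the alpha and gamma levels. Pcdhgc4 (ENSMUSG00000023036.14, chr18:37815079-37841873), whose protein is needed for the survival of cortical interneurons in mice, had 69.21 TPM in replicate 1 and 68.54 TPM in replicate 2. Pcdhgc3 (ENSMUSG00000102918.1, chr18:37806364-37841873), which promotes dendrite branching in mouse cortical neurons through Axin1, had 53.81 and 55.31 TPM. Pcdhgc5 (ENSMUSG00000102543.5, chr18:37819513-37841873), a member found at some GABAergic synapses in rodents, had 43.53 and 38.63 TPM. These 3 neighbours at the end of the gamma array kept the same order in both libraries of the first quantification, and no values of neighbouring ranks overlapped. In the second quantification Pcdhgc4 was the lowest of the 3, with 44.8 ± 0.58 TPM, against 77.7 ± 0.87 TPM for Pcdhgc3 and 75.3 ± 3.35 TPM for Pcdhgc5 (SD, n = 2).

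In the alpha array the C-type genes differed from each other. Pcdhac2 (ENSMUSG00000102697.1, chr18:37143503-37187657), which serotonergic axons of the mouse use to space themselves apart, had 35.85 and 35.96 TPM. Pcdhac1 (ENSMUSG00000103255.1, chr18:37090013-37187657) had 3.61 and 3.58 TPM, which placed it 44th of the 58 members and close to the lowest alpha member. The ratio of Pcdhac2 to Pcdhac1 was 9.99 ± 0.08 (SD, n = 2). So 4 of the 5 C-type genes stood above every other member, and Pcdhac1 did not.

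Taken as a group, the 5 C-type genes had a median 5.83 ± 0.44 times that of the other 31 alpha and gamma members (SD, n = 2). They made up 29.6% ± 0.10 of the alpha sum and 56.0% ± 0.95 of the gamma sum (SD, n = 2). In the second quantification these shares were 29.0% ± 0.58 and 51.5% ± 0.10 (SD, n = 2). With only transcripts of 1000 or more bases outside the constant exons, the gamma sum was 243.2 TPM in the first quantification. Of this, Pcdhgc3 held 54.6, Pcdhgc5 31.6 and Pcdhgc4 27.6 TPM, so the C-type share of gamma was lower. The percentiles that follow are those of the first quantification. Among nuclear protein-coding genes the mean level of Pcdhgc4 was at the 92.8 percentile, that of Pcdhgc3 at 90.4, that of Pcdhgc5 at 86.8 and that of Pcdhac2 at 84.7. Pcdhac1 was at 49.2, and the remaining alpha and gamma members lay between the 48.9 percentile (Pcdhgb8) and the 70.3 percentile (Pcdhga11). The C-type genes apart from Pcdhac1 were thus well-expressed genes of the cortex, while the other alpha and gamma members were nearer the middle of all genes.

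The 12 alpha members other than the C-type genes spanned a narrow range, with means between 3.54 and 11.8 TPM and a coefficient of variation among members of 28.5%. Each of these encodes its own extracellular recognition domain on the common alpha cytoplasmic end. The highest was Pcdha5 with 12.45 TPM in replicate 1 and 11.21 TPM in replicate 2. It was followed by Pcdha4 with 9.64 and 10.82 TPM, Pcdha9 with 9.83 and 9.41 TPM, and Pcdha12 with 8.50 and 8.86 TPM. Pcdha5 was highest in both libraries, while the ranks of Pcdha4 and Pcdha9 were exchanged between them. This order depended on the quantification. In the authors' second quantification the Pcdha11 record ENSMUSG00000102206.5 had the highest mean of this group, 23.7 ± 8.83 TPM, against 16.8 ± 1.35 TPM for Pcdha5 (SD, n = 2), and Pcdha4 was 19th of the 58 members, against 8th in the first. The lowest were Pcdha8 with 3.05 and 4.02 TPM and the Pcdha11 record ENSMUSG00000007440.10 with 5.26 and 4.47 TPM. Pcdha8 was lowest in both libraries.

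The 12 gamma A members ranged from 4.52 to 16.4 TPM and the 7 gamma B members from 3.51 to 7.19 TPM in mean level. Both types carry the same gamma cytoplasmic end and differ in the extracellular repeats. The median gamma A level was 1.49 ± 0.03 times the median gamma B level (SD, n = 2), and by mean level all 7 gamma B members lay below the gamma A median. In replicate 1 alone, Pcdhgb6 with 7.46 TPM was above the gamma A median of 7.10 TPM. Pcdhga11 led gamma A with 15.41 and 17.35 TPM. It was followed by Pcdhga12 with 10.40 and 10.35 TPM, Pcdhga10 with 8.35 and 8.14 TPM, and Pcdhga7 with 7.26 and 8.52 TPM. Pcdhga11 and Pcdhga12 were first and second in both libraries, while Pcdhga7 was above Pcdhga10 in replicate 2 alone. The lowest gamma A members were Pcdhga2 with 4.84 and 4.19 TPM and Pcdhga5 with 4.80 and 5.22 TPM.

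Among gamma B members, Pcdhgb6 had 7.46 and 6.92 TPM, Pcdhgb7 had 6.71 and 6.87 TPM, Pcdhgb5 had 5.78 and 6.30 TPM, and Pcdhgb1 had 4.82 and 4.42 TPM. Pcdhgb6 was highest in both libraries, by a margin in replicate 2 that was smaller than its own difference between libraries. Pcdhgb4 had 3.47 and 4.82 TPM, and the polymorphic pseudogene Pcdhgb8 had 3.90 and 3.12 TPM. These last members exchanged ranks between the libraries, so which of them is lowest cannot be read from these data. Pcdhgb8 was detected at a level within the range of the other gamma B genes in replicate 1. Whether its parental alleles are intact in these animals was not tested.

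The beta genes, which lack the shared cytoplasmic end, were the lowest of the family. Their means ranged from 0.15 TPM for Pcdhb1 to 5.34 TPM for Pcdhb17, with a median of 3.27 ± 0.22 TPM, against 7.77 ± 0.11 TPM for alpha and 6.86 ± 0.05 TPM for gamma members (SD, n = 2). Of the 22 beta members, 0 reached the alpha median and 12 lay below every gamma member. Still, 10 of the 22 lay above the lowest alpha member, so the clusters overlapped. Pcdhb17 (chr18:37484795-37489454) had 5.43 and 5.26 TPM, Pcdhb12 (chr18:37435621-37438654) had 5.11 and 5.41 TPM, Pcdhb7 (chr18:37341702-37345202) had 5.35 and 5.16 TPM, and Pcdhb20 (chr18:37504264-37507822) had 4.90 and 5.44 TPM. The order of these 4 changed between the libraries, so none of them can be called the highest. Pcdhb1 (chr18:37264938-37267525) stood apart from the other 21, which ranged from Pcdhb2 at 2.01 ± 0.47 TPM upward (SD, n = 2).

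Level rose along the array in the gamma A genes, with lower correlations in the other groups. Among the 12 gamma A members the Spearman correlation of mean level with order from the start of the array was 0.909, so that genes nearer the constant exons were higher. It was 0.457 among the 22 beta members, 0.119 among the 12 alpha members without C-type genes and 0.071 among the 7 gamma B members. The last gamma B gene in order, the polymorphic pseudogene Pcdhgb8, was also the lowest by mean level at 3.51 TPM, which lowers the gamma B value. Late in the gamma A order, Pcdhga10 and Pcdhga11 have only 2.14% and 29.0% of sequence of their own and overlap an antisense gene. Whether gamma A and gamma B differ in this pattern cannot be told from so few genes. The points come from the same libraries, and within a cluster they share constant exons, so these values only describe the pattern. Gamma A and gamma B genes are interspersed along the same stretch of DNA.

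How far a member can be measured depends on how much of its RNA is its own. In the GENCODE M21 transcripts, the share of a member's distinct stretches of 100 bases that occur in no other gene, on either strand, was 92.3% or more for 21 of the 22 beta members. It was 10.0% to 52.3% for the alpha members and 2.14% to 68.2% for the gamma members, because the constant exons are shared. In all, 21 of the 58 members had 50% or less of their own. The lowest were Pcdhga10 at 2.14%, Pcdha4 at 10.0%, the Pcdha11 record ENSMUSG00000102206.5 at 21.3% and Pcdhga11 at 29.0%.

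Part of that sharing is with genes outside the family. Pcdhga10 shared 54.3% and Pcdhga11 27.6% with non-members only, all of it on the opposite strand, where the antisense gene Gm26672 (chr18:37746559-37768242) runs through this end of the gamma A and B genes. Pcdhb12 was the exception among beta genes, with 37.7% of its own and 61.7% shared with non-members on the opposite strand, where Gm37446 lies. Pcdhgc3 shared 26.6% with non-members on the opposite strand, where BC037039 overlaps its start. Pcdha4 shared 37.8% with non-members on its own strand. The strand setting of the counting, not given in the sources used here, decides whether the levels of Pcdhga10, Pcdhga11, Pcdhb12, Pcdhgc3 and the Pcdha11 record ENSMUSG00000102206.5 can hold reads of an antisense gene, so these levels are uncertain. Pcdhgb7, Pcdhga7, Pcdha12, Pcdhga8, Pcdhga1 and Pcdhga12 shared smaller parts, from 14.6% down to 3.44%, with non-members on the opposite strand alone, and Pcdha4 and Pcdha6 did so in part. Gm26672 itself had 1.24 TPM in replicate 1 and 1.65 TPM in replicate 2, BC037039 had 1.11 and 0.96 TPM, and Gm37446 had 1 count in replicate 1 and 0 in replicate 2.

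**Figure D2:**
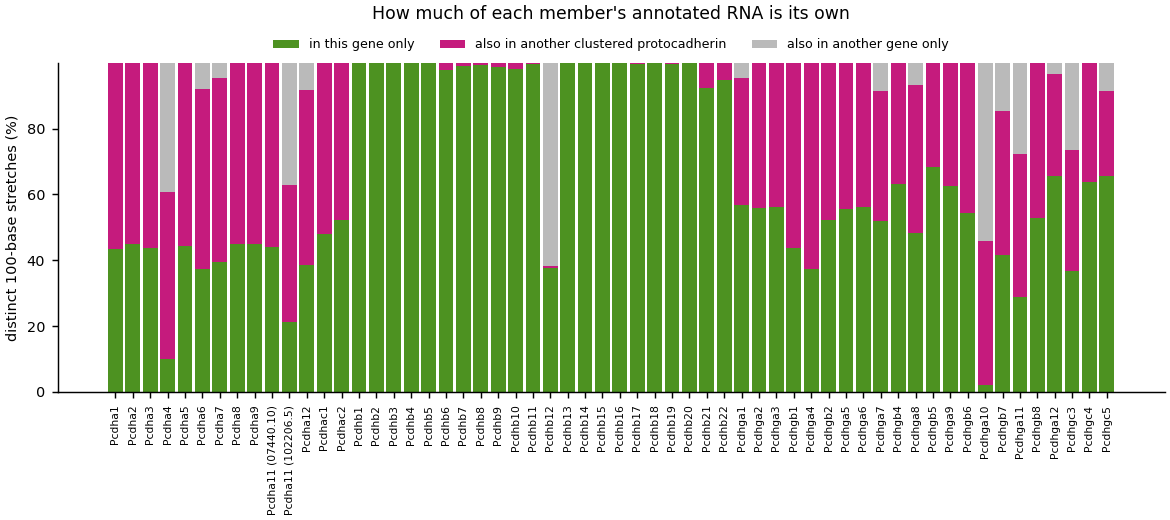
Stacked bars give, for each member in order along the chromosome, the percent of its distinct 100-base stretches found in that gene only (green), in another clustered protocadherin (magenta) or only in a gene outside the family (grey). Beta members are almost wholly green except Pcdhb12 at 37.7%, while alpha and gamma members share large parts within their cluster.

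The 2 libraries differed little in most members. The ratio of replicate 1 to replicate 2 was taken on log2 of TPM plus 0.1 for the 57 members whose expected counts averaged 20 or more. An absolute log2 ratio over 0.5 was found in 0 of the 57, and the background over 14055 protein-coding genes was 4.79%. Within the range of mean counts of the members the background was 2.31%. With backgrounds this low, a count of 0 among 57 says nothing particular about the members. The median log2 ratio was -0.03 among members, against -0.04 over all protein-coding genes, and the range among members was -0.46 to 0.31. The median absolute log2 ratio was 0.11 among members and 0.10 over all protein-coding genes.

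Of the 57 members, 23 were higher and 34 lower in replicate 1. The 95% Clopper-Pearson interval of the ratio of CPM (counts scaled to the same total per library), which covers counting error only, left out 1 for 18 of the 57. The background for this was 22.2% of protein-coding genes, and 21.6% within the members' range of counts. These 18 were 7 of 14 alpha, 3 of 21 beta and 8 of 22 gamma members. For 49 of the 57 the sign of the ratio was the same in both of the authors' quantifications. Both use the same reads, and the share over all protein-coding genes was not computed, so this count says nothing particular about the members. Across the 58 members the 2 libraries had a Pearson correlation of 0.989 on the log2 scale and a Spearman correlation of 0.969, which describe these libraries and are no test.

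The largest difference was that of Pcdhgb4, at -0.46 in log2, and the intervals deposited by the authors, 2.92 to 3.88 TPM in replicate 1 and 4.12 to 5.24 TPM in replicate 2, did not overlap. Pcdhb19 was the only other member whose deposited intervals were apart, with 3.12 and 3.80 TPM. The share of all protein-coding genes with intervals apart was not computed, so whether this is few or many cannot be told. Pcdhb2 had a log2 ratio of -0.46 on 89.67 and 107.84 counts, and its counting interval for the ratio, 0.60 to 1.08, included 1. The Pcdha11 record ENSMUSG00000102206.5, with 7.09 and 9.39 TPM, had a log2 ratio of -0.40 and Pcdha8 one of -0.39. All 4 members with the largest differences were lower in replicate 1. With expected counts in place of TPM, Pcdhb8, with 86.46 and 125.19 counts, passed the limit of 0.5 with a log2 ratio of -0.56 after TMM scaling.

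Some marker genes of tissues next to the cortex differed more between the libraries than any member did, by TPM of the first quantification. An absolute log2 ratio over 0.5 was found in 4 of 4 choroid plexus markers with enough counts. The same held for 3 of 5 striatal and 3 of 5 hippocampal markers, against a background of 4.79%. All 5 choroid plexus markers listed were lower in replicate 1, their summed level being 8.62 TPM in replicate 1 and 312.2 TPM in replicate 2. Only Ttr of these 5 was detected in both libraries. The 5 striatal markers summed to 109.7 TPM in replicate 1 and 71.7 TPM in replicate 2, and the 5 hippocampal ones to 13.1 and 16.4 TPM. Their part in the differences among members was not tested. All 5 markers each of glutamatergic neurons, GABAergic interneurons, astrocytes, the oligodendrocyte lineage, microglia and endothelial cells were detected. Of 5 cerebellar markers only Car8 was. The background of detection at 1 TPM was 59.6% of protein-coding genes.

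**Figure D3:**
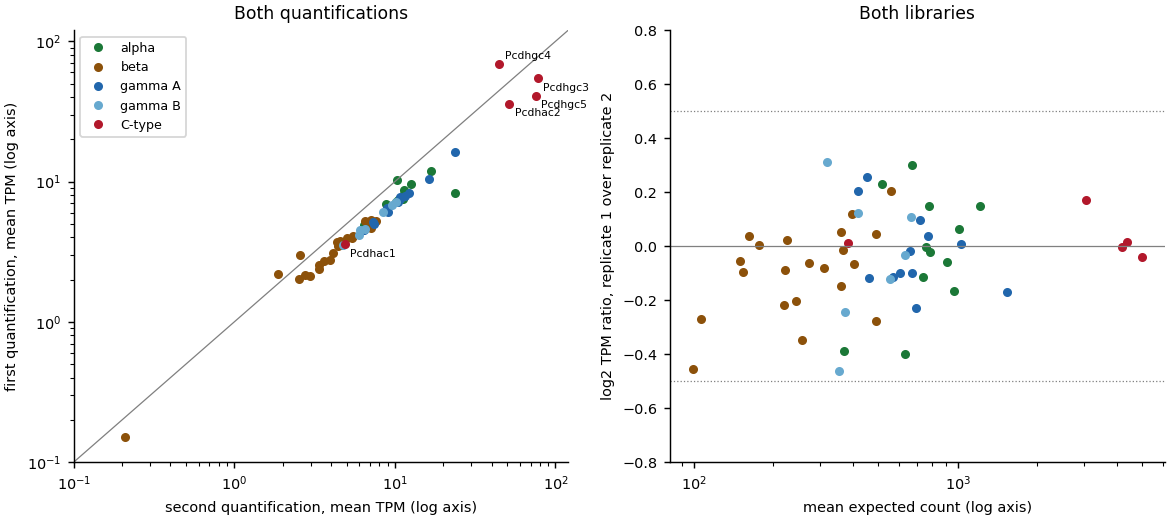
The left panel plots each member's mean TPM in the first quantification against the second, on log axes with the line of equality. The right panel plots the log2 TPM ratio of replicate 1 over replicate 2 against the mean expected count on a log axis, with dotted lines at 0.5 and -0.5. Pcdhgc4 is the clearest of the 3 members above the line of equality, and no member lies beyond the dotted lines.

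The authors deposited 2 quantifications of each library, made in different ways from the same reads, and they ranked the members similarly. The Spearman correlation across the 58 members was 0.987 and the Pearson correlation on the log2 scale 0.979, both quantifications sharing the same reads. In TPM, 55 of the 58 members were higher in the second quantification, in which protein-coding genes held 78.0% and 79.3% of all TPM, against 48.0% and 49.0% in the first. After scaling to the same sum over protein-coding genes, the log2 ratio of the first to the second quantification had a median of 0.21 over the 57 members and 0.08 over 14045 protein-coding genes. Cluster shares were close, with 57.0% gamma, 28.8% alpha and 14.2% beta in the second.

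The 4 members with the largest differences between the quantifications were Pcdhgc4 at 1.32, Pcdhb8 at 0.92, Pcdhb6 at 0.90 and the Pcdha11 record ENSMUSG00000102206.5 at -0.79, as log2 of the first over the second. All 4 have a short annotated transcript whose level differed between the quantifications. For Pcdhb8 the transcript Pcdhb8-202 of 462 bases had 0.77 and 0.50 TPM in the first quantification and 0 in the second. For Pcdhb6 the transcript Pcdhb6-202 of 681 bases had 0.91 and 0.44 TPM in the first, and less than 0.001 TPM in the second. For the Pcdha11 record the transcript Pcdha11-204 of 625 bases had 0.62 and 1.28 TPM in the first and 8.61 and 18.8 TPM in the second.

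Which C-type gene ranked first rested on such a transcript. Pcdhgc4 ranked first by gene TPM in the first quantification and 4th in the second, where it had 45.2 and 44.4 TPM. The transcript Pcdhgc4-203, 2272 bases long with 153 bases outside the constant exons, held 61.2% of the gene's TPM in replicate 1 and 58.7% in replicate 2 in the first quantification. It had 42.34 and 40.22 TPM there, against 4.29 and 0.63 TPM in the second quantification. The full-length transcript Pcdhgc4-201 of 5024 bases had 22.64 and 24.46 TPM in the first and 38.4 and 41.3 TPM in the second.

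Pcdhgc5 also had such a form. Pcdhgc5-204, of 593 bases with 147 outside the constant exons, had 10.38 and 8.00 TPM in the first quantification and 25.3 and 33.5 TPM in the second. Pcdhgc3 had none. Its transcript Pcdhgc3-201 of 4687 bases held 98.1% and 97.1% of its TPM in the first quantification and 91.3% and 89.7% in the second. Transcripts of this short kind made up 17.3% ± 1.22 of the gamma sum in the first quantification and 8.28% ± 0.69 in the second (SD, n = 2).

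When only transcripts with 1000 or more bases outside the constant exons were counted, the C-type genes had the same order in both quantifications. Pcdhgc3 was then highest at 54.6 ± 1.05 TPM, followed by Pcdhac2 at 35.9 ± 0.08, Pcdhgc5 at 31.6 ± 1.36 and Pcdhgc4 at 27.6 ± 1.02 TPM in the first quantification (SD, n = 2). In the second they had 77.7 ± 0.87, 51.5 ± 0.44, 45.9 ± 2.43 and 42.3 ± 2.01 TPM in that order (SD, n = 2). In the second the gap between Pcdhgc5 and Pcdhgc4 was smaller than their SDs together. These 4 stayed above every other member, and Pcdhac1 stayed at 3.60 ± 0.02 TPM. The Spearman correlation between the quantifications was 0.991 for these transcripts. The C-type median was then 4.53 times that of the other alpha and gamma members in the first quantification and 4.69 times in the second.

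**Figure D4:**
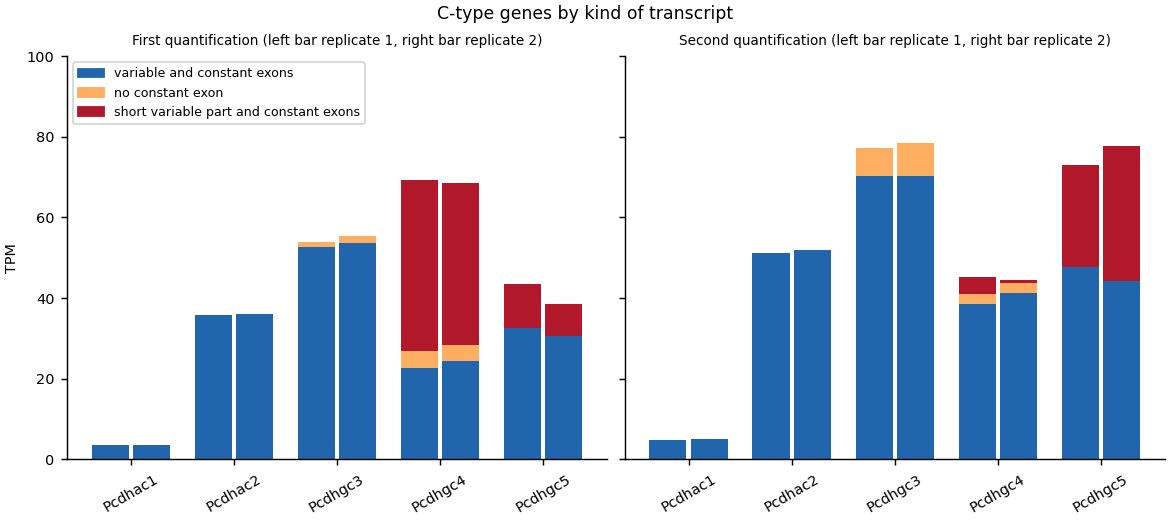
Stacked bars of TPM for the 5 C-type genes, with the left bar of each pair for replicate 1 and the right bar for replicate 2, in the first and the second quantification, split by kind of transcript. The red part, transcripts with a short variable part and constant exons, is over 40 TPM for Pcdhgc4 in the first quantification and at most 4.29 TPM in the second, while for Pcdhgc5 it is larger in the second.

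The end of the alpha transcripts has alternatives as well. In 6 transcripts of 5 genes (Pcdha1, Pcdha2, Pcdha4, Pcdha6 and the Pcdha11 record ENSMUSG00000102206.5), 428 bases within the last constant exon (chr18:37185048-37185475) are spliced out. These transcripts held 12.1% ± 0.15 of the alpha sum in the first quantification and 11.9% ± 0.21 in the second (SD, n = 2). Transcripts that keep this stretch held 83.4% ± 0.99 and 83.2% ± 1.60. The other alpha genes have no annotated transcript with this stretch spliced out, so none of their level could be assigned to one. These shares therefore depend on the annotation and do not measure how often the stretch is spliced out. The cluster total was steady, but the gene it was assigned to was not. Pcdha2-202, the spliced form of Pcdha2, had 1.84 and 0 TPM in the first quantification and 8.84 and 8.77 TPM in the second. Pcdha6-201, the spliced form of Pcdha6, had 6.28 and 8.14 TPM in the first and 0.0004 and 4.56 TPM in the second.

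In all, 22 of the 58 members have more than 1 annotated transcript. The same transcript was the main one in both quantifications for 17 of these 22, and in both libraries for 21 of 22 in each quantification. The 5 whose main transcript changed with the quantification were Pcdha2, Pcdha6, the Pcdha11 record ENSMUSG00000102206.5, Pcdhgb1 and Pcdhgc4. Transcripts without any constant exon made up 4.46% ± 0.20 of the gamma sum and 3.21% ± 0.96 of the alpha sum in the first quantification (SD, n = 2).

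Genes that work with the clustered protocadherins were widely expressed beside them. All 12 non-clustered protocadherins listed, single genes of the same superfamily, were detected, with a median of 26.8 ± 2.67 TPM and a sum of 489.7 ± 22.7 TPM (SD, n = 2). The highest were Pcdh1 with 96.70 and 96.71 TPM, Pcdh9 with 88.49 and 103.17 TPM and Pcdh10 with 88.40 and 89.26 TPM. The lowest were Pcdh12, an endothelial protocadherin, with 1.51 and 1.55 TPM and Pcdh18 with 6.10 and 6.34 TPM.

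RNA of the machinery that brings a chosen promoter to its enhancer was detected in both libraries. All 11 genes of the insulator and cohesin list were detected (background 59.6%), with a median of 23.6 ± 0.69 TPM (SD, n = 2). The highest were the cohesin loader subunit Mau2 with 38.07 and 39.65 TPM, the cohesin regulator Pds5b with 34.29 and 35.67 TPM and the cohesin subunit Rad21 with 34.39 and 32.08 TPM. Ctcf had 25.32 and 28.80 TPM. The lowest were the cohesin loader Nipbl with 13.44 and 14.42 TPM and the cohesin release factor Wapl with 15.54 and 14.98 TPM.

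Of the 10 genes listed for promoter silencing, 9 were detected (background 59.6%), with a median of 23.2 ± 0.44 TPM (SD, n = 2). Whether each of them silences protocadherin promoters was not tested. The highest were the DNA methyltransferase Dnmt3a with 160.78 and 173.50 TPM, the histone methyltransferase Ehmt2 with 81.09 and 87.62 TPM and the zinc finger protein Wiz with 42.72 and 50.78 TPM. The one below 1 TPM was Dnmt3b, the enzyme that methylates these promoters in the mouse embryo, with 0.77 and 0.89 TPM. Cdca7 had 2.81 and 2.90 TPM. Smchd1, a repressor of the clusters in mice, had 15.47 and 15.12 TPM.

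All 16 cytoplasmic and membrane partners were detected (background 59.6%), with a median of 67.5 ± 3.54 TPM (SD, n = 2), the highest of the lists. They include the WAVE complex, which remodels actin and binds the alpha cytoplasmic end, and the kinases Ptk2 and Ptk2b, which the alpha and gamma cytoplasmic ends inhibit. The highest were Abi2 with 207.87 and 221.00 TPM, Marcks with 159.25 and 157.58 TPM and Nckap1 with 154.34 and 147.08 TPM. Axin1, the partner of Pcdhgc3, had 11.21 and 12.08 TPM, and the receptor kinase Ret was lowest with 3.30 and 3.74 TPM.

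Of the proteases that cut the clustered protocadherins, all 7 listed were detected (background 59.6%), with a median of 36.6 ± 2.48 TPM (SD, n = 2). Adam10, which sheds the extracellular part, had 39.08 and 38.13 TPM. Of the gamma-secretase subunits, Aph1a was highest with 43.18 and 41.06 TPM, Ncstn had 38.32 and 39.06 TPM, and Aph1b and Psen2 were lowest with 9.27 and 9.98 TPM and with 10.03 and 10.55 TPM. Across these 5 lists, 0 genes passed an absolute log2 ratio of 0.5 between the libraries. With a background of 4.79%, this count says nothing particular about the lists.

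**Figure D5:**
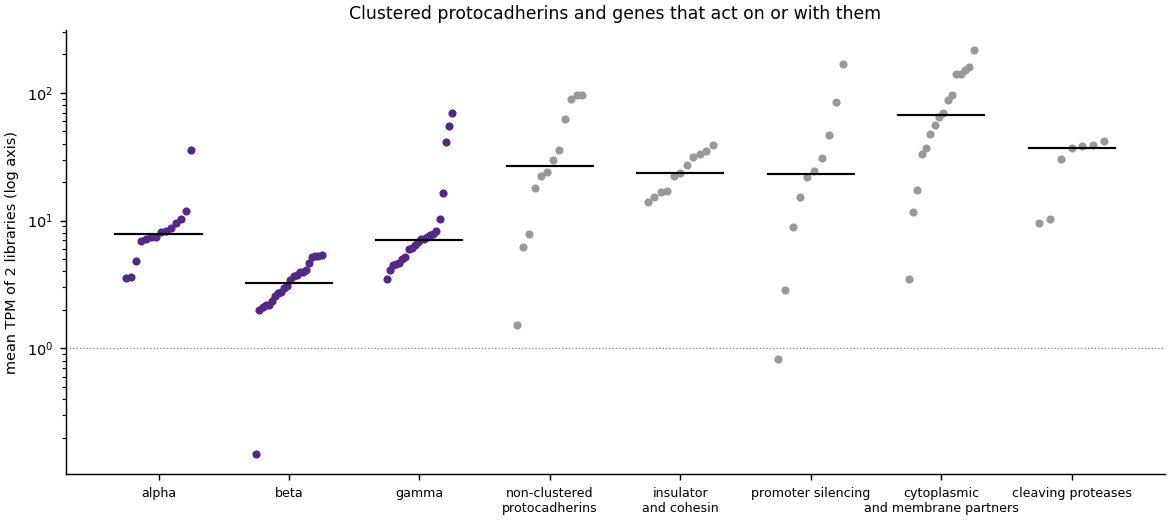
Mean TPM over both libraries, on a log axis, of each clustered protocadherin by cluster (purple) and of each gene in the 5 lists of related genes (grey). Horizontal lines mark the median of the genes' means, and the dotted line marks 1 TPM. Single clustered members other than 4 C-type genes lie below the medians of all 5 lists.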

How the data were processed

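Levels came from the tables deposited by the authors for 2 libraries, built on mm10 with GENCODE M21, per the deposited file descriptions. The first quantification was made from transcriptome alignments. Per the file headers it gives expected counts, TPM, posterior mean TPM, the percent of a gene's TPM held by each transcript, and interval bounds of TPM, a signal deposited by the authors whose interval level is unstated. The second used the reads and an index, per the deposited descriptions, and its deposited TPM and estimated counts per transcript were summed by gene. Programs, versions and strand: not given in the sources used here. In the first quantification the effective length was the length minus 99 bases, a proportionally larger cut for short transcripts. Its part in the levels of the short transcripts was not tested.

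Errors are the SD of 2 libraries. The library ratio used 0.1 TPM as pseudocount, a mean expected count of 20 or more and a limit of 0.5 in log2. Its counting intervals cover counting error only, since reads without molecular identifiers can be copies of 1 molecule. TMM (edgeR 4.0.16) and DESeq2 1.42.0 size factors, from rounded expected counts with a mean of 10 or more, served as alternative scalings with R 4.3.3. Shared sequence was counted as distinct stretches of 100 bases in the GENCODE M21 transcripts. The constant exons, the transcripts' kinds and the positions also came from that annotation.

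Named in the text are the C-type genes, the 4 highest and 2 lowest members of the alpha, beta, gamma A and gamma B groups, the 4 with the largest differences between libraries and between quantifications, the members on either side of 1 TPM, and the 3 highest and 2 lowest of each list. Ctcf, Smchd1, Pcdhb19 and the transcripts given were singled out beyond this rule after their values were seen. The members and the lists were chosen with earlier results of these data known. No sequence of the members is shown.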

Additional observations from a re-analysis of the deposited data

Results flagged for a closer look

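Within the span of the 3 clusters lie 27 annotated records that are not clustered protocadherins, 15 of them on the opposite strand. Above 3 expected counts in both libraries were 11 of these records, 5 of them on the opposite strand. They were looked at because they carry signal outside the family itself. There are no control samples to set them against, and the strand setting of the counting is unstated.

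On the opposite strand, the antisense gene Gm26672 at the end of the gamma A and B genes had 53 counts in replicate 1 and 63 in replicate 2. BC037039, antisense to the start of Pcdhgc3, had 48 and 40 counts, and Gm10545, antisense to alpha genes, had 25.55 and 30.86. The protein-coding genes between the beta and gamma clusters were Taf7, a subunit of a general transcription factor, with 228 and 246 counts, and Slc25a2, a mitochondrial carrier, with 12 and 11.

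On the strand of the clusters, the unprocessed pseudogene Gm36858 within the alpha array had 143.58 and 134.7 counts, or 3.05 and 2.98 TPM, near the level of Pcdha8 and Pcdhac1. The other alpha pseudogenes were Gm18150 with 27 and 12 counts and Gm19035 with 41 and 52 counts. Gm20162, a pseudogene among the beta genes, had 10 and 7 counts, and the long non-coding RNA 3222401L13Rik ahead of the gamma array had 19 and 17.

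Gm38182, annotated on the gamma constant exons, had 19.38 and 25.43 counts, or 1.13 and 1.58 TPM. In the second quantification it had 354.6 and 368.8 counts, or 51.5 and 57.2 TPM. The record Gm42416, whose transcript runs from the alpha into the gamma cluster, had 0 counts in both libraries in the first quantification and 67.6 and 206.3 in the second. These records share sequence with the members, and how much of their signal belongs to the members was not tested.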

How the results depend on the processing

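No paired analysis was possible because there is only 1 group. Beside the 34 main values, 91 of the recomputed ones moved by less than the spread of the libraries, or by less than 1.5 times for a count, and 56 moved by more.
In the second quantification the alpha, beta and gamma sums were 194.4, 96.0 and 384.4 TPM, the medians 11.0, 4.17 and 9.77 TPM and the shares 28.8%, 14.2% and 57.0%. The C-type ratio was 5.16 and the gamma A to gamma B ratio 1.55. The list medians were 34.8 TPM for non-clustered protocadherins, 43.1 for insulator and cohesin, 36.6 for promoter silencing, 100.7 for partners and 56.2 for proteases. The Spearman correlation with position was 0.336 for alpha, 0.526 for beta and 0.930 for gamma A.
With posterior mean TPM the alpha sum was 129.5, its median 7.545 and its share 26.5%, and the gamma sum was 286.1 and its median 6.67. Scaled to protein-coding genes, the sums were 275.2, 152.0 and 605.8 and the medians 16.0, 6.74 and 14.1 for alpha, beta and gamma.
With only the transcripts that hold 1000 or more bases outside the constant exons, an alternative chosen after seeing the data, the alpha sum was 132.6 (29.6%), the gamma sum 243.2 (54.3%), the C-type ratio 4.53 and the Spearman correlation between quantifications 0.991. In the second quantification these transcripts gave an alpha sum of 180.7, median 10.9 and share 28.7%, a gamma sum of 352.5, median 9.77 and share 56.0%, a C-type ratio of 4.69 and a gamma A to gamma B ratio of 1.55.
Past the library limit, where TPM gave 0 members, were 1 after TMM and 1 after DESeq2 scaling (Pcdhb8), 2 after spike-in scaling (Pcdhb8 and Pcdhgb4) and 2 in the second quantification (Pcdhb8 and the Pcdha11 record ENSMUSG00000102206.5). For these changes the cause was not tested.
With each library alone, the Spearman correlation between quantifications was 0.982 and 0.983, and the Spearman correlation with position ran from -0.028 to 0.077 for alpha, 0.405 to 0.455 for beta, 0.909 to 0.923 for gamma A, 0.179 to 0.214 for gamma B and 0.670 to 0.693 for all gamma members, where it was 0.657 over both. The sign for alpha changed between the libraries. The order of the cluster sums, the C-type ratio above 1 and the gamma A to gamma B ratio above 1 held under the alternatives run. With 2 libraries of 1 group, no value separates animals from preparation, and depth limits the members of fewest counts, Pcdhb1, Pcdhb2 and Pcdhb8.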
